A study of Homo sapiens with 6 samples.

Results

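The genes described here were 10 members of the TGF-beta pathway, namely the ligands TGFB1, TGFB2 and INHBA, the receptors TGFBR1, TGFBR2 and TGFBR3, the signal transducers SMAD3 and SMAD7, and the response genes TGFBI and ID1. Every probe set whose platform annotation named 1 of these genes was taken, which gave 19 of the 22215 probe sets tested. Their signals were compared between SUM-159 cells stably transfected with an empty vector and SUM-159 cells stably transfected with an SH3GL2 insert in pcDNA 3.1, with 3 Affymetrix U133A 2.0 arrays per group. SUM-159 is a triple-negative breast cancer cell line, and SH3GL2 encodes endophilin A1, an adaptor protein of endocytosis. Both lines were made with plasmids that differ by the insert, and G418 was used in the culture of the stable transfectants. The number of clones per group was not given in the sources used here, so an effect of SH3GL2 and a difference between clones cannot be told apart. It was likewise not given whether the triplicates were separate cultures, and the p-values therefore measure the spread between these arrays, which may be technical.

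TGF-beta is secreted in a latent complex and, once released, binds the type II receptor TGFBR2, which recruits and phosphorylates the type I receptor TGFBR1. TGFBR3, also called betaglycan, presents the ligand and in particular TGF-beta 2, which binds TGFBR2 weakly on its own. The activated receptors phosphorylate SMAD2 and SMAD3, which enter the nucleus with SMAD4, whereas SMAD7 is induced by the pathway and blocks the receptors. In breast cancer the pathway is known both for growth arrest in early lesions and for invasion and mesenchymal change in advanced ones. Activins, for which INHBA encodes a subunit, use the same SMADs, and the BMP branch acts through SMAD1, SMAD5 and SMAD8, with the ID genes as its best known targets.

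All values are deposited signals on a log2 scale, on which a difference of 1 is a factor of 2, and every change is given as SH3GL2 minus empty vector. They ran from 2.82 to 15.31, with array medians of 6.97 to 7.02. A reference for signal without a transcript came from 75 probe sets of genes of other organs, whose median was 4.97 and whose 95th percentile was 6.94. Of 17 probe sets of basal or mesenchymal breast markers, 11 had a group mean above that percentile, among them vimentin (VIM) at 14.68 with empty vector and 14.58 with SH3GL2, and 6 did not. The basal keratin KRT5 (6.73 and 6.78) lay below it, and KRT14 (4.21 and 4.24) lay below the reference median. The 10 probe sets of blood and vessel markers all lay below the reference 95th percentile. Of 20 probe sets of hormone receptor and luminal markers, 18 lay below it, and the exceptions were 1 probe set each of ERBB2 (8.50 and 8.45) and GATA3 (9.57 and 9.27). None of the 47 marker probe sets passed limma's test between the groups, although 5 had an unadjusted p under 0.05. SH3GL2 has 1 probe set, which read 3.22 ± 0.04 and 3.26 ± 0.09 (SD, n = 3 each) without and with the insert, below the reference median in both groups, so the labels could not be checked by it. Precision is limited by the 6 arrays, and in bulk RNA fewer cells that express a gene and less RNA per cell cannot be told apart.

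Among the 19 member probe sets, 3 were lower in the SH3GL2-transfected cells at an adjusted p under 0.05 and 0 were higher. Those 3 were a pair of the 4 probe sets of TGFB2 and the only one of TGFBI, and the other 16 did not pass the test. Over all probe sets, 4.17% passed in either direction, 2.18% as lower and 1.99% as higher. An unadjusted p under 0.05 was reached by 7 member probe sets, against 15.9% of all probe sets. With the brightest probe set of each gene, 2 of 10 member genes were lower and 0 were higher, against 2.36% and 2.54% of 11963 genes. The members were chosen with earlier results of these data known, so the shares describe them and test nothing. The median change was -0.10 over the member probe sets and 0.01 over all probe sets, and 12 members had a negative and 7 a positive estimate. All 3 SH3GL2 arrays lay below all 3 empty vector arrays for 7 member probe sets and above them for 2, where the shares among all probe sets were 8.97% and 10.5%. Such a separation of 3 from 3 arrays has an exact two-sided permutation p of 0.1, the smallest this design allows.

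**Figure D1:**
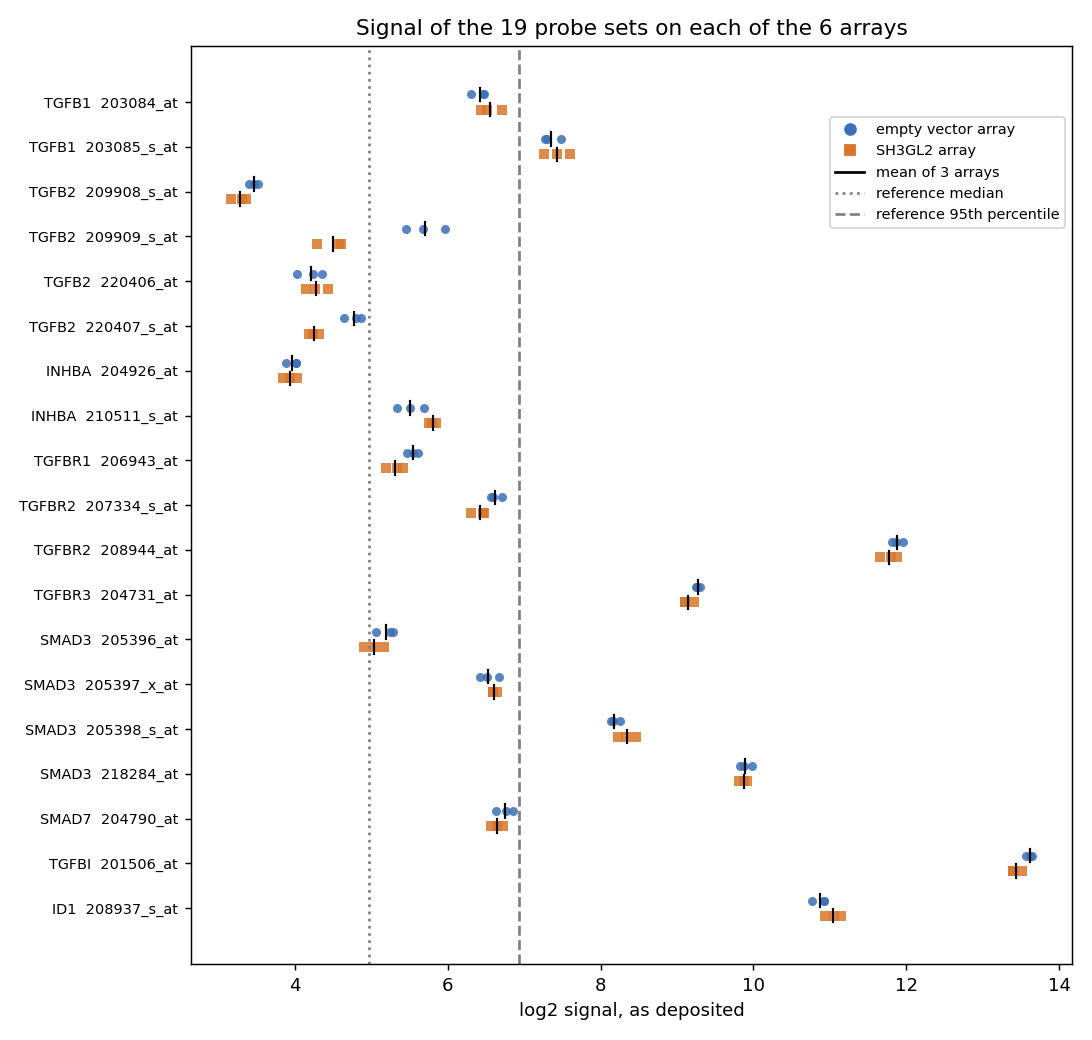
Log2 signal of each member probe set on each of the 6 arrays, with empty vector and SH3GL2 arrays in separate colours, short bars at the group means and the reference median and 95th percentile as vertical lines. TGFB2 probe set 209909_s_at falls from a mean of 5.70 to 4.49 across the reference median, whereas TGFBI stays above 13.

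TGFB2 encodes TGF-beta 2, and it was the member with the largest change. Probe set 209909_s_at read 5.68, 5.45 and 5.97 on the empty vector arrays and 4.58, 4.61 and 4.29 on the SH3GL2 arrays. The groups did not overlap, and the lowest empty vector array exceeded the highest SH3GL2 array. The mean fell from 5.70 ± 0.26 (SD, n = 3) to 4.49 ± 0.18 (SD, n = 3), a change of -1.21 (standard error 0.13, limma adjusted p = 0.000164). As deposited, the linear signal was 2.31-fold lower with a 95% interval of 1.88 to 2.83. The empty vector mean lay between the reference median and 95th percentile and the SH3GL2 mean below that median, so neither mean stood above the range of the reference probe sets, and the size of this fold depends on how such dim values are treated.

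The second TGFB2 probe set that passed, 220407_s_at, read 4.87, 4.64 and 4.80 with empty vector and 4.31, 4.19 and 4.24 with SH3GL2. Its groups did not overlap either, and the mean changed from 4.77 ± 0.12 to 4.25 ± 0.06 (SD, n = 3 each), a difference of -0.52 (standard error 0.10, limma adjusted p = 0.00719). Both means were below the reference median. Probe set 209908_s_at read 3.46, 3.40 and 3.52 against 3.16, 3.31 and 3.36, again without overlap, but its change of -0.18 (95% interval -0.38 to 0.01) did not pass (limma adjusted p = 0.35). Probe set 220406_at read 4.03, 4.24 and 4.35 against 4.26, 4.14 and 4.43, the groups overlapped, and its change was 0.07 (95% interval -0.17 to 0.31, limma adjusted p = 0.838). The 4 probe sets of TGFB2 thus did not move alike, and all but 209909_s_at lay below the reference median in both groups. With all values floored at the reference median before the fit, 209909_s_at had a change of -0.73, 1.66-fold lower, with a limma adjusted p of 0.109, and the other TGFB2 probe sets had no difference left. Under the same floor TGFBI, far above it, kept its change while its limma adjusted p rose from 0.0478 to 0.199. What raised these p-values was not tested. With 16 added before the logarithm both calls were kept, with changes of -0.82 and -0.31 (limma adjusted p = 0.000253 and 0.00617). Analysis of variance, run 1 probe set at a time and adjusted in the same way, gave 0.132 for 209909_s_at and 0.125 for 220407_s_at. Leaving out any 1 array kept both calls, with changes of -1.33 to -1.07 and of -0.59 to -0.47.

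TGFB1 encodes TGF-beta 1, the isoform most often linked to breast cancer, and neither of its probe sets passed the test. Probe set 203085_s_at, above the reference 95th percentile in both groups, read 7.48, 7.30 and 7.27 with empty vector and 7.26, 7.60 and 7.43 with SH3GL2, and the arrays of both groups were interleaved. Its change was 0.08, and the 95% interval of -0.14 to 0.30 bounds what the arrays left undetected (limma adjusted p = 0.792). The other probe set, 203084_at, changed by 0.13 (95% interval -0.09 to 0.35, limma adjusted p = 0.607), also with overlapping groups. The interval of TGFB2 probe set 209909_s_at, -1.50 to -0.91, lay wholly below those of both TGFB1 probe sets, as did that of 220407_s_at, -0.73 to -0.31. The intervals of TGFB2 probe sets 209908_s_at (-0.38 to 0.01) and 220406_at (-0.17 to 0.31) overlapped them. The difference between the genes was not tested.

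INHBA encodes the beta A subunit shared by activin A and inhibin A. Its probe set 210511_s_at read 5.69, 5.34 and 5.50 with empty vector and 5.80, 5.76 and 5.85 with SH3GL2. The SH3GL2 arrays all lay above the empty vector arrays, with means of 5.80 ± 0.05 and 5.51 ± 0.18 (SD, n = 3 each), but the change of 0.29 (95% interval 0.06 to 0.52) did not pass over all probe sets (limma unadjusted p = 0.0161, adjusted p = 0.171). The other INHBA probe set, 204926_at, had both means below the reference median, overlapping groups and a change of -0.03 (95% interval -0.23 to 0.17).

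**Figure D2:**
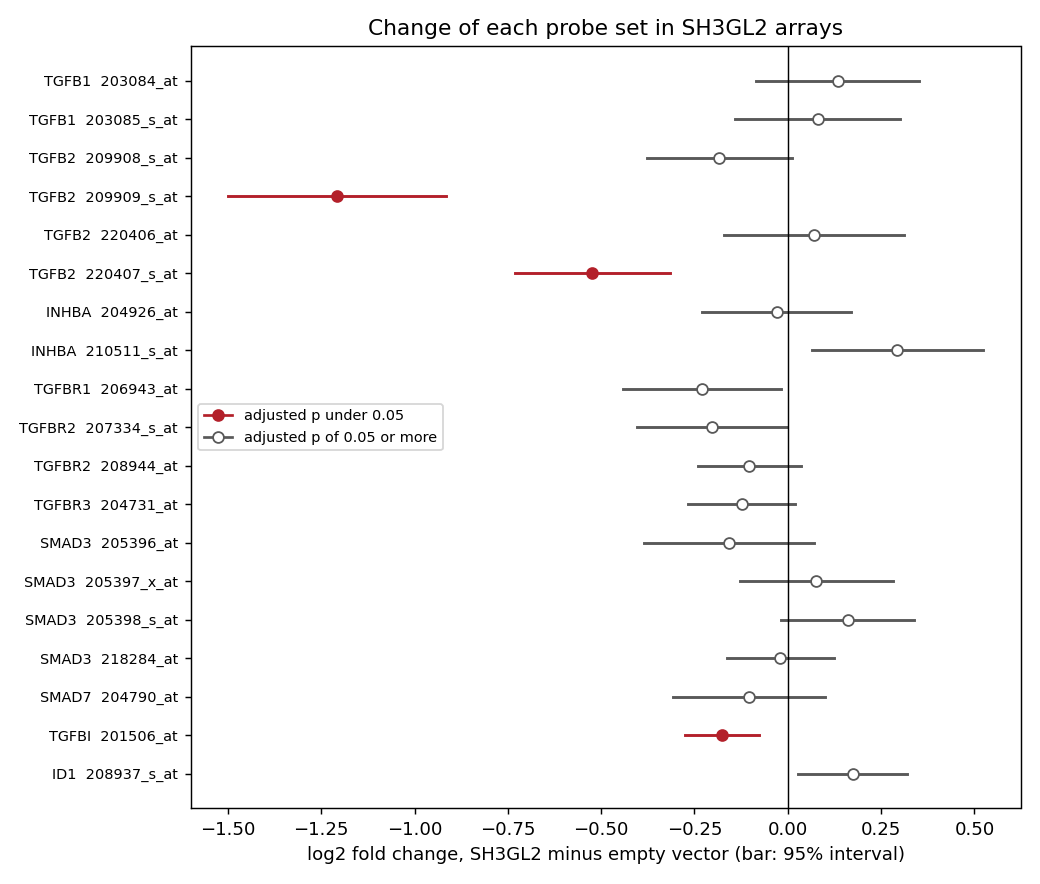
Log2 fold change of each member probe set, SH3GL2 minus empty vector, with its 95% interval from limma as a bar, and filled points at an adjusted p under 0.05. The filled points are TGFB2 209909_s_at at -1.21, TGFB2 220407_s_at at -0.52 and TGFBI at -0.18, and all 4 receptor estimates lie below 0 with intervals within -0.44 to 0.04.

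The promoter stretches of TGFB2, TGFBI and TGFB1 are shown because 2 of these genes had probe sets that passed and TGFB1 is the other TGF-beta isoform among the members, with no probe set that passed. Each is the 250 bases before a RefSeq transcription start on GRCh38.p14, at chr1:218345086-218345335 on the + strand for TGFB2, chr5:136028738-136028987 on the + strand for TGFBI and chr19:41353923-41354172 on the - strand for TGFB1, and each reads 5′ to 3′ along the gene. Capitals mark matches on either strand to CAGAC (the SMAD box), GGCGCC (a GC-rich SMAD element), TGACGT (the core of the cAMP response element), TGANTCA (the AP-1 site) and TATAAA (the TATA box).
TGFB2: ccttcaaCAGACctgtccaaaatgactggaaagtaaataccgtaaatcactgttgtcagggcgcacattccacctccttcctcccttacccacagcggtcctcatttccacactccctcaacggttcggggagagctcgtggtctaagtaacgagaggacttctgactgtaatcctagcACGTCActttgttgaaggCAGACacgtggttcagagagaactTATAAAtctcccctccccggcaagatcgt
TGFBI: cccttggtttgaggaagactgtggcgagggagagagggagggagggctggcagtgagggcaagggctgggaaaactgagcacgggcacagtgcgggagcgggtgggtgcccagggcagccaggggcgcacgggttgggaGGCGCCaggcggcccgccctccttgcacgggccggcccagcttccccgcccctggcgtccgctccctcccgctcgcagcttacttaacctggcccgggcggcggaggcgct
TGFB1: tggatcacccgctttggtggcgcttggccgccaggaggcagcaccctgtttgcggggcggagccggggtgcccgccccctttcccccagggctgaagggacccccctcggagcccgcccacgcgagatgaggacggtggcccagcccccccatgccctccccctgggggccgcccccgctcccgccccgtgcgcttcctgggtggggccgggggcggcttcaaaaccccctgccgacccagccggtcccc
The TGFB2 stretch held CAGAC 2 times, ending 239 and 49 bases before the start, TGACGT 1 time, ending at 66 bases, and TATAAA, ending at 24 bases. The TGFBI stretch held GGCGCC, ending at 106 bases, and none of the other motifs, and the TGFB1 stretch held none of those searched. Among 35116 such windows of all genes, 38% held CAGAC, 16.4% GGCGCC, 7.1% TGACGT, 6.57% TGANTCA and 10.7% TATAAA, and the palindrome GTCTAGAC, found in 0.182%, was in none of the 3. No 2 marked matches overlapped, and GTCTAGAC holds no CAGAC on either strand. GC content was 50.4% in the TGFB2 stretch, 72.8% in that of TGFBI and 76.8% in that of TGFB1, with a median of 58.0% over all windows. Members with no probe set that passed held CAGAC too, 3 times in a window of SMAD3 and up to 2 times in windows of TGFBR1 and SMAD7. The windows of INHBA, TGFBR2, TGFBR3 and ID1 held no CAGAC. These matches describe the letters only, and the arrays measured no binding.

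None of the 4 receptor probe sets passed the test, and all 4 had a negative estimate, with a median of -0.16. They kept this sign in every alternative in which they were fitted, but the alternatives reuse the same arrays. Over all 22215 probe sets, 10470 had a negative estimate. Of the 15 probe sets of receptors in the wider pathway list, 5 were negative and 10 positive, with a median of 0.03. TGFBR1, the type I receptor kinase, read 5.47, 5.61 and 5.54 with empty vector and 5.33, 5.19 and 5.41 with SH3GL2 on 206943_at. The groups did not overlap, and the change was -0.23 (95% interval -0.44 to -0.02, limma unadjusted p = 0.0356, adjusted p = 0.265). TGFBR2, the type II receptor, had 2 probe sets. On 208944_at, the brighter of them, the arrays read 11.87, 11.81 and 11.96 with empty vector and 11.80, 11.65 and 11.88 with SH3GL2. These overlapped, and the change was -0.10 (95% interval -0.24 to 0.04, limma adjusted p = 0.499). On 207334_s_at, between the median and the 95th percentile of the reference, the readings were 6.71, 6.56 and 6.59 against 6.46, 6.48 and 6.31, which did not overlap, and the change was -0.20 (limma adjusted p = 0.31). TGFBR3, betaglycan, read 9.26, 9.30 and 9.25 with empty vector and 9.11, 9.11 and 9.22 with SH3GL2. Its groups were apart as well, with means of 9.27 ± 0.03 and 9.15 ± 0.06 (SD, n = 3 each) and a change of -0.12 (95% interval -0.27 to 0.02, limma adjusted p = 0.412). In all, 3 of the 4 receptor probe sets were separated in this way, where 8.97% of all probe sets did.

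SMAD3, the receptor-activated SMAD that carries the TGF-beta signal to DNA, had 4 probe sets, and all of them overlapped between the groups. The brightest, 218284_at, read 9.82, 9.87 and 9.98 with empty vector and 9.88, 9.81 and 9.92 with SH3GL2, a change of -0.02 (95% interval -0.16 to 0.12, limma adjusted p = 0.932). The other 3 changed by -0.16 on 205396_at, 0.08 on 205397_x_at and 0.16 on 205398_s_at, with limma adjusted p-values of 0.546, 0.782 and 0.384. Their signs differed and none passed. SMAD7, the inhibitory SMAD, read 6.76, 6.63 and 6.85 with empty vector and 6.56, 6.72 and 6.65 with SH3GL2 on 204790_at, a change of -0.10 (95% interval -0.31 to 0.10, limma adjusted p = 0.684). Its arrays overlapped too.

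TGFBI encodes a secreted matrix protein that is named for its induction by TGF-beta. It read 13.65, 13.57 and 13.62 with empty vector and 13.40, 13.39 and 13.52 with SH3GL2 on 201506_at. No SH3GL2 array reached the lowest empty vector array, and the mean fell from 13.61 ± 0.04 to 13.44 ± 0.07 (SD, n = 3 each). This change of -0.18 (standard error 0.05, limma adjusted p = 0.0478) left 88.5% of the empty vector signal, 1.13-fold lower with a 95% interval of 1.06 to 1.21. In contrast to TGFB2, the signal was far above the reference 95th percentile, but the change was small and lay next to the threshold. The call was lost in 11 of 15 alternatives, among them each array centred on its median (limma adjusted p = 0.0512), no intensity trend (0.278) and the analysis of variance (0.281). Leaving out any array but SH3GL2 replicate 3 also ended it, with limma adjusted p-values of 0.147, 0.089 and 0.13 without empty vector replicates 1, 2 and 3 and of 0.133 and 0.106 without SH3GL2 replicates 1 and 2. The estimate was negative in every one of these fits.

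ID1, an inhibitor of differentiation that is a direct BMP target and is repressed by TGF-beta in many epithelial cells, read 10.92, 10.77 and 10.92 with empty vector and 11.06, 10.93 and 11.14 with SH3GL2 on 208937_s_at. The SH3GL2 arrays were the higher ones without overlap, although the nearest arrays of the groups read 10.93 and 10.92. Its change of 0.17 (95% interval 0.03 to 0.32) did not pass over all probe sets (limma unadjusted p = 0.0233, adjusted p = 0.21).

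**Figure D3:**
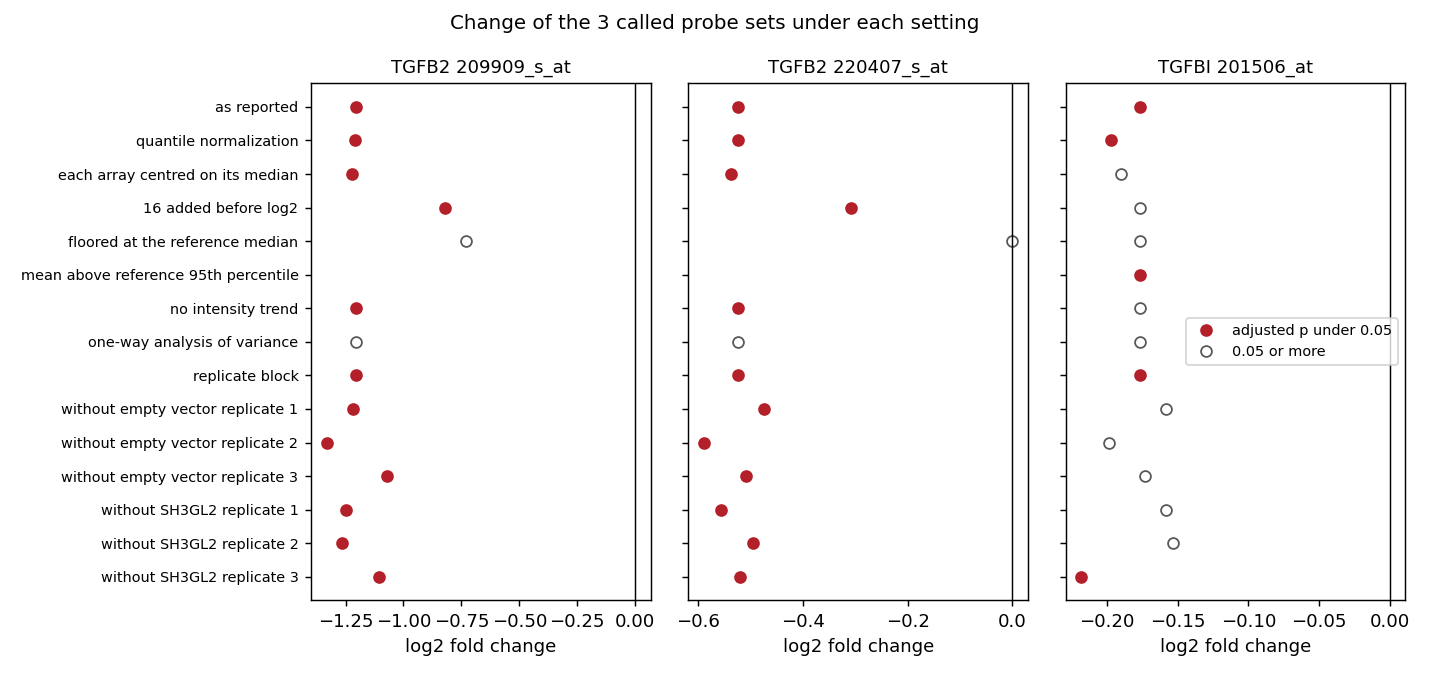
Log2 fold change of the 3 member probe sets that passed, with 1 line for each way of processing, filled where the adjusted p was under 0.05 and open otherwise. The TGFB2 probe sets stay filled in every fit that leaves out 1 array and open under the floor and the analysis of variance, whereas TGFBI is open in most lines. The fit restricted to probe sets above the reference 95th percentile has no point for TGFB2, because neither probe set entered it.

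The wider pathway was described with 83 further genes, of which 76 had a probe set of their own. Of their 148 probe sets, 14 were lower, 9 were higher and 125 did not pass, and the median change was -0.01. Together that was 15.54% of the list, beside 4.17% of all probe sets, and several genes contributed more than 1 probe set. With the brightest one per gene, 6 of 76 genes were lower and 6 higher, beside 2.36% and 2.54% of all genes. The list was written with earlier results of these data known, so the excess over these shares is no test of the pathway. By role, 1 of 21 ligand probe sets was lower and 2 were higher, 4 of 17 for latency and activation were lower, 1 of 15 for receptors was lower and 1 of 14 for SMADs was higher. Among 34 probe sets of inhibitors and cofactors 2 were higher, and among 47 of targets 8 were lower and 4 higher.

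**Figure D4:**
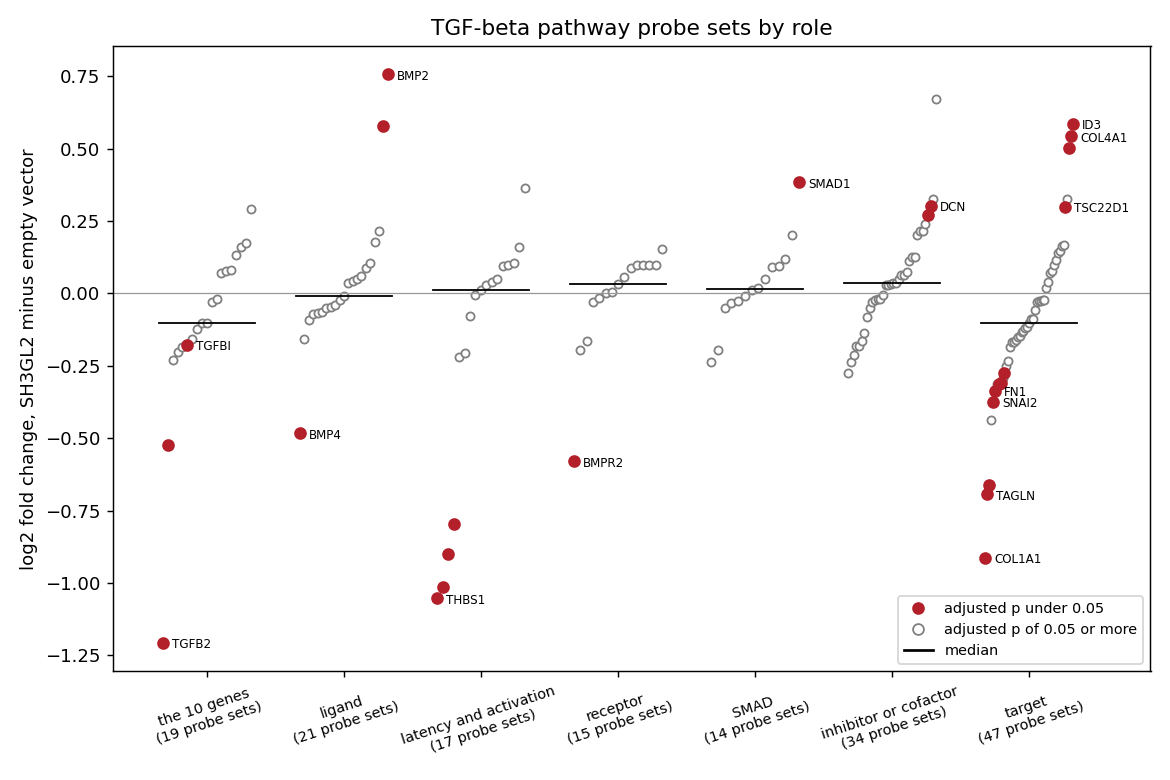
Log2 fold change, SH3GL2 minus empty vector, of the 19 probe sets of the 10 genes and of the 148 probe sets of other TGF-beta pathway genes by role, with lines at the medians and filled points, named by gene, at an adjusted p under 0.05. Among the 148, the lowest points are those of THBS1, down to -1.05, and the target group, with 8 lower and 4 higher, has both signs.

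Thrombospondin 1 (THBS1), which releases TGF-beta from its latent complex, had the largest decrease among the probe sets of the wider list that passed. On 201109_s_at it read 11.89, 12.04 and 11.98 with empty vector and 10.99, 10.95 and 10.93 with SH3GL2. The groups stood far apart, with a change of -1.01 (standard error 0.05, limma adjusted p = 2.26e-07) that left 49.5% of the empty vector signal. In all 4 of 5 THBS1 probe sets fell, by 0.80 to 1.05 on the log2 scale, and the fifth, 215775_at, changed by -0.22 (limma adjusted p = 0.4). The 3 brightest THBS1 probe sets were above the reference 95th percentile in both groups.

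Of the other ligands and their receptors, those that passed belong to the BMP branch. That branch makes up much of these lists, and its genes BMP5, BMP6, BMP7 and BMPR1B had no probe set that passed. BMP2 rose on both of its probe sets, by 0.76 on 205290_s_at (5.93 ± 0.27 to 6.69 ± 0.13, SD, n = 3 each, limma adjusted p = 0.00447) and by 0.58 on 205289_at (limma adjusted p = 0.00967). BMP4 fell by 0.48 on 211518_s_at (6.77 ± 0.14 to 6.29 ± 0.09, limma adjusted p = 0.0149). The BMP2 and BMP4 means all lay between the median and the 95th percentile of the reference. BMP4 lost its call without empty vector replicate 2 (0.0783) or SH3GL2 replicate 1 (0.0662), and BMP2 on 205289_at lost its call without SH3GL2 replicate 3 (0.0635). BMPR2, the type II BMP receptor, was lower by 0.58 on 210214_s_at (limma adjusted p = 0.00516), whereas its brighter probe set 209920_at changed by -0.20 and did not pass (0.215). SMAD1, the BMP-activated SMAD, rose by 0.38 on 210993_s_at (9.42 ± 0.11 to 9.80 ± 0.11, limma adjusted p = 0.013) and changed by 0.09 on 208015_at without passing. Its call was lost without replicate 1 (0.0587) or 2 (0.079) of the empty vector or replicate 3 of SH3GL2 (0.0916). The other SMADs of this branch did not pass. SMAD5 changed by -0.24 on 205188_s_at and -0.20 on 205187_at (limma adjusted p = 0.125 and 0.43), and SMAD9, also called SMAD8, changed by 0.01 (0.978). Decorin (DCN), a matrix proteoglycan that binds TGF-beta, was higher on 2 of 4 probe sets, by 0.27 (limma adjusted p = 0.0284) and 0.30 (0.0386). Both calls were lost after median centring of the arrays (0.0502 and 0.0544). The former was also lost without any 1 of the 6 arrays (0.0514 to 0.143), and the latter without any array but SH3GL2 replicate 2 (0.0671 to 0.208).

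The targets that passed did so in both directions, and 35 of the 47 target probe sets did not pass. Among the latter were COL1A2 (0.12 and -0.13), ACTA2 (-0.18 and 0.07), SNAI1 (0.17) and CCN2 (-0.15). IL11 (-0.12 and -0.03) and CDKN1A (0.10) did not pass either. All of these had a limma adjusted p of 0.305 or more. COL1A1, a fibrillar collagen chain induced by TGF-beta, fell by 0.66 on 202310_s_at (8.46, 8.30 and 8.53 against 7.73, 7.78 and 7.80, limma adjusted p = 0.00038) and by 0.91 on 202311_s_at (limma adjusted p = 0.000481), but its other probe sets changed by -0.03 each and did not pass. TAGLN, the smooth muscle protein transgelin, fell by 0.69, from 7.80 ± 0.21 to 7.11 ± 0.11 (SD, n = 3 each, limma adjusted p = 0.00222). COL4A1, a basement membrane collagen, rose on both probe sets, by 0.50 (8.58 ± 0.04 to 9.08 ± 0.08, SD, n = 3 each, limma adjusted p = 0.0011) and by 0.54 (limma adjusted p = 0.0201). The latter call was lost without replicate 1 (0.0764) or 2 (0.0706) of the empty vector or replicate 1 (0.055) or 3 (0.104) of SH3GL2. ID3, a relative of ID1, rose by 0.59, from 9.47, 9.70 and 9.62 to 10.07, 10.42 and 10.06 (limma adjusted p = 0.00307). The other ID genes of the list did not pass. ID2 changed by -0.16 on 201565_s_at and -0.09 on 201566_x_at (limma adjusted p = 0.396 and 0.76). ID4 changed by 0.08, -0.02 and 0.04 on its probe sets.

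The remaining targets that passed are named because they were so few, after their values were seen. Fibronectin (FN1), a matrix glycoprotein, fell on 4 of 6 probe sets, by 0.27 to 0.34, all with means above 12 in both groups, and the other FN1 probe sets changed by -0.31 and -0.44 with limma adjusted p-values of 0.069 and 0.073. SNAI2, a transcription factor of epithelial-mesenchymal transition, fell by 0.37 (10.51 ± 0.08 to 10.14 ± 0.08, SD, n = 3 each, limma adjusted p = 0.00555). TSC22D1, named for its stimulation by TGF-beta, rose by 0.30 (limma adjusted p = 0.0174), a call that was lost without replicate 1 (0.0684) or 2 (0.082) of the empty vector or replicate 1 (0.0533) or 3 (0.0948) of SH3GL2. Under the analysis of variance, THBS1 on 201108_s_at and 201109_s_at kept its calls and the other probe sets of the wider pathway lost theirs. With the floor at the reference median, calls remained for 4 probe sets of THBS1 and for COL1A1 202310_s_at among the lower ones and for COL4A1 211980_at and DCN 201893_x_at among the higher ones. Without an intensity trend FN1, SMAD1, DCN and TSC22D1 lost their calls.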

How the data were processed

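RNA of 6 SUM-159 samples was hybridized to Affymetrix U133A 2.0 arrays, 3 with empty vector and 3 with SH3GL2. The authors scanned with GCOS, and the submitters' processing notes list MAS5 with no version. The values deposited are log2 signals. Any scaling between arrays is not given in the sources used here, and a scaling step would leave only changes relative to the rest of the array. Values were used as deposited. The 62 Affymetrix controls among 22277 probe sets were not tested. The platform annotation gave 1 gene symbol to 19064, several to 1043 and none to 2108, and only probe sets with 1 symbol were named.

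Groups came from the sample labels and were compared by limma 3.58.1 under R 4.3.3, using lmFit and then eBayes with its intensity trend. Tests were two-sided, p-values were adjusted by Benjamini-Hochberg over 22215 probe sets, and 0.05 was the threshold. This fit was also run on simulated data with the spreads shuffled among probe sets, which could not test the intensity trend. Members and lists were chosen with earlier results of these data known. All probe sets of the 10 members were named, and of the other pathway genes up to 4 per role by the smallest adjusted p. Further pathway genes were named after their values were seen. Alternatives were quantile normalization, median centring, 16 added before the logarithm, a floor at the reference median, only probe sets with a mean above the reference 95th percentile, no intensity trend, a one-way analysis of variance, a replicate block, each array left out and an adjusted p under 0.01. Promoter sequences came from RefSeq (GRCh38.p14), where all 10 members matched. Plots used matplotlib 3.10.9 in Python 3.11.15.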

Additional observations from a re-analysis of the deposited data

How the results depend on the processing

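The count of 3 lower member probe sets fell to 0 with the floor at the reference median and to 0 with the analysis of variance, and it was 1 of 7 when only probe sets with a mean above the reference 95th percentile were tested, where the TGFB2 probe sets did not enter. It was 2 to 3 when single arrays were left out, and 0 members were higher in every alternative. In the wider pathway the 14 lower probe sets became 5 with the floor and 2 with the analysis of variance, and 13 to 15 without single arrays. The 9 higher ones became 2 with the floor, 5 without an intensity trend, 0 with the analysis of variance and 4 at an adjusted p under 0.01. They were 3 to 10 without single arrays, with 4 without empty vector replicate 1, 4 without empty vector replicate 2 and 3 without SH3GL2 replicate 3. Over all probe sets, 485 lower and 441 higher became 164 and 137 with the floor, 44 and 33 with the analysis of variance and 256 and 191 at an adjusted p under 0.01, and the higher ones became 270 without a trend. Without single arrays the lower ones numbered 296 to 437 and the higher ones 184 to 376. The floor was applied to the whole table before the fit, so adjusted p-values of bright probe sets changed as well. Apart from the filter, the cause of these differences was not tested.

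Among members that did not pass, 4 estimates near 0 changed sign when single arrays were left out, with ranges of -0.005 to 0.17 for TGFB1 203085_s_at, -0.077 to 0.013 for INHBA 204926_at, -0.055 to 0.025 for SMAD3 218284_at and -0.018 to 0.14 for TGFB2 220406_at. With the replicate block, 3 member probe sets were lower and 0 higher, and 15 of the wider pathway were lower and 10 higher. Over all probe sets the block gave 573 lower and 506 higher, against 485 and 441 without it. Deviations from the group means correlated at -0.01, 0.13 and 0.15 between same-numbered arrays. Between differently numbered arrays they ran from -0.16 to 0.02, and the negative end came from replicates 2 and 3 crossed (-0.13 and -0.16). The main fit used no block, and whether the numbers mark a shared batch is not given. Dim signal sets a limit, since 50.9% of probe sets exceeded the reference 95th percentile in their mean, and 4 of 19 member probe sets had both group means below the reference median.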

Other observations

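BAMBI, a pseudoreceptor that blocks TGF-beta and BMP receptors and is itself induced by the pathway, is described here after its values were seen. Its probe set 203304_at read 9.05, 8.45 and 9.10 with empty vector and 9.68, 8.97 and 9.96 with SH3GL2. The groups overlapped, because replicate 2 was the lowest array of each group, and the change of 0.67 did not pass (limma adjusted p = 0.115). Between arrays of the same number the differences were 0.63, 0.52 and 0.86, all higher with SH3GL2. With the replicate number as a block the limma adjusted p was 0.00034. Without SH3GL2 replicate 2 the change was 0.95 and the limma adjusted p 0.0024. Over all fits that left out 1 array the change ran from 0.46 to 0.95 and the limma adjusted p from 0.0024 to 0.409. Over the other alternatives of the unblocked fit the adjusted p ran up to 0.538. No label says that the number marks a shared batch.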
